A study of Homo sapiens with 2 samples.

Results

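The genes described here are 10 genes of the dense-core vesicle, the granule in which neurons and endocrine cells store peptides and catecholamines. They are the granins CHGA, CHGB, SCG2, SCG3, SCG5 and VGF, the processing enzymes PCSK1, PCSK2 and CPE, and the priming factor CADPS. All 10 were found by symbol among the 20037 protein-coding genes of RefSeq (GRCh38.p14). Their peaks are all NeuroD1 peaks that overlapped the body of a gene or lay up to 20 kb from either of its ends. By this rule, 2 of the 6183 peaks in the list were peaks of these genes, 1 within CPE and 1 beside VGF, and 8 of the 10 genes had no peak.

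NeuroD1 ChIP-seq was performed in wild-type IMR-32 cells, an established line of MYCN-amplified neuroblastoma. ChIP-seq sequences the DNA that an antibody pulls down, and a peak is a site at which reads exceed the local background. There was 1 library from the NeuroD1 ChIP, used here as its peak list, and 1 input library, which was not used here. With 1 library and no replicate, the values describe that library, no test between samples was possible, and all intervals cover counting error only. The labels name a NeuroD1 antibody, whereas the supplementary ChIP-seq methods name an antibody to H3K27Ac. The antibody list of the study holds both, and H3K27Ac was also profiled in these cells by a separate CUT&Tag experiment. The study reported that DNA motifs of NeuroD1 were enriched at its NeuroD1 sites, which was not examined here. The peak list was used as labelled.

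Over the whole list, the fold enrichment had a median of 6.79, with a lower quartile of 5.79 and an upper quartile of 8.68. Fold enrichment is the ChIP pileup at the summit, the highest point of the peak, over the local background, after adding 1 to both. The depth of the library is unknown. The number of ChIP reads at a summit was recovered from its fold enrichment and p-value, and had a median of 17 and a range from 8 to 272. At the lowest background of the list, 1.04, the fewest reads of a called summit were 8, which 4 peaks had, and another 33 peaks had 9. At the same background, 122 peaks had 10 reads and 243 had 11. No site with fewer than 8 reads was listed, and whether every site with 8 or more was listed is not known. A gene without a peak is therefore a gene at which binding was not detected at this depth. The intervals of reads given below do not allow for this limit on the sites listed.

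NeuroD1 is a basic helix-loop-helix transcription factor that binds E-boxes, short DNA motifs, together with E-protein partners. It is known for its role in the differentiation of neurons and of pancreatic and gut endocrine cells, which carry dense-core vesicles. Granins are acidic proteins that condense with the cargo as the vesicle buds from the trans-Golgi network, prohormone convertases then cut the precursors, and carboxypeptidase E trims the cut ends. Sympathetic neuroblasts and neuroblastoma also carry such vesicles, and granin peptides are used as markers of these tumours.

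The sequences below show the promoter of AP1S1, at which the peak beside VGF lay, and the promoters of VGF and CPE. The start sites used for VGF and CPE were 11.1 kb and 19.8 kb from the summits of their peaks. That of VGF (chr7:101165569) lies inside the RefSeq body of the gene, whose 5′ end is at 101169952. The VGF promoter shown therefore lies inside that body too. No sequence at the CPE peak is shown. The first is the 250 bases before the start site of AP1S1 (chr7:101154226-101154475, forward strand), where the peak beside VGF begins. Capitals mark the 5 bases that lie in the peak.
AP1S1: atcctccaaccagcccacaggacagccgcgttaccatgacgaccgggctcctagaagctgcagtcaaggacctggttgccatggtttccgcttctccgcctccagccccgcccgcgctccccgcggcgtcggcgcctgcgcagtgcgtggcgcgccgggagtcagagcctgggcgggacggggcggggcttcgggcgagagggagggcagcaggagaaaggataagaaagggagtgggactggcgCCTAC
The next is a stretch of 30 bases over the summit of that peak (chr7:101154476-101154505), with the summit base in capitals.
AP1S1 summit: ggtggccgaagtgggAcgcgccgagccgga
The others are the 250 bases before the start sites of VGF (chr7:101165570-101165819, reverse strand) and of CPE (chr4:165378758-165379007, forward strand), neither of which was reached by a peak.
VGF: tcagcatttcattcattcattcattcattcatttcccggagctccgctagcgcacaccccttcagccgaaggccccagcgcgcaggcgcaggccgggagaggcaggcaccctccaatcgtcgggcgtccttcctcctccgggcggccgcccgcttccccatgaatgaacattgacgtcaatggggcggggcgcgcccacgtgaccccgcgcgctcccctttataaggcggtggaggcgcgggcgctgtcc
CPE: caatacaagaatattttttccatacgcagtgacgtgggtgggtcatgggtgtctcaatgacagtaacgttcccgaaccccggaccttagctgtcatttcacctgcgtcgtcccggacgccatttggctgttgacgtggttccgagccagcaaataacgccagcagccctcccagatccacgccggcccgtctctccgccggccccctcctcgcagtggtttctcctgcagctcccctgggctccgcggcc
All promoter sequences are from a set of promoter windows on RefSeq (GRCh38.p14). In this promoter set 8 of the 10 genes had an entry. CHGB and SCG2 had none, although RefSeq holds the bodies of both.

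Among the granins, VGF had a peak and CHGA, CHGB, SCG2, SCG3 and SCG5 had none. VGF encodes a precursor of neuropeptides and is itself stored in the vesicle. The peak lay 7.89 kb beyond the 3′ end of the VGF body, at chr7:101154471-101154616, and its width of 146 bp was the least found in the list. It reached 4.83-fold enrichment, with a −log10 p of 5.83 and a −log10 q of 2.45. At the summit, 101154491, 9 ChIP reads were recovered (95% exact Poisson interval 4.12 to 17.1) over a background of 1.04. If the background is taken as fixed, these limits are fold enrichments of 2.47 and 8.72. Of all peaks, 8.56% had a lower fold enrichment and 1.65% had a lower −log10 q, so the VGF peak was among the weakest that were listed.

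The peak assigned to VGF lay at another gene. Its summit was 15 bp downstream of the start site of AP1S1, which encodes the small subunit of the clathrin adaptor complex of the trans-Golgi network. It was 11.1 kb from the VGF start site used here. VGF and AP1S1 face each other on opposite strands, and the 3′ end of VGF is the nearer end. The next peak on the chromosome was 232 kb away, with a fold enrichment of 11.6.

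**Figure D1:**
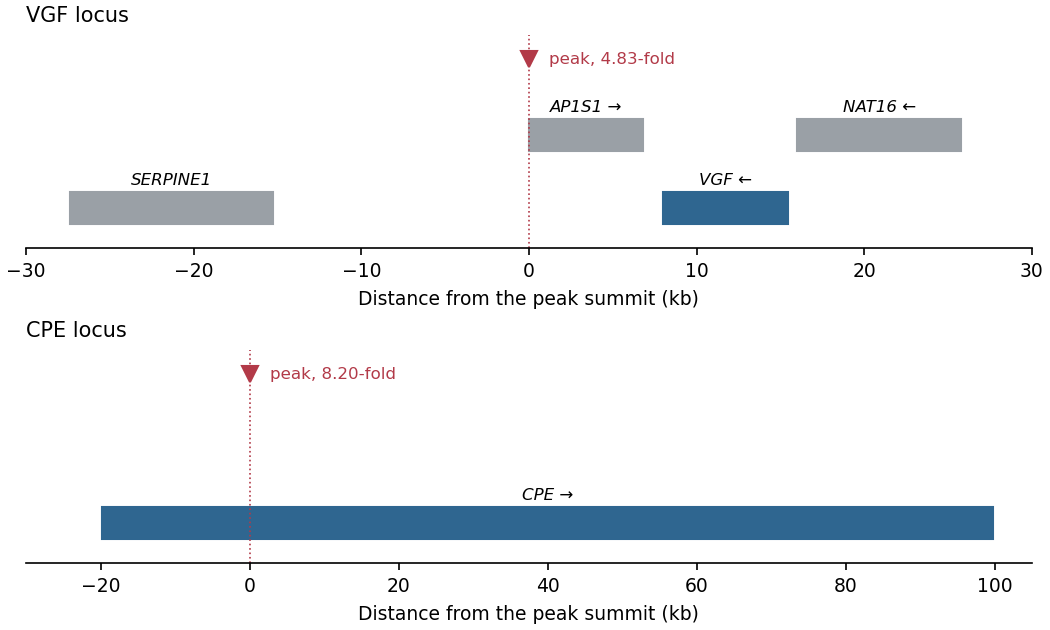
Positions of the protein-coding genes up to 20 kb from the peaks of VGF (top) and CPE (bottom), as distance in kb from the peak summit, with arrows for the strand where it is known. The VGF peak coincides with the start of AP1S1, and the CPE peak lies inside the CPE body.

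The 5 granins without a peak lay at very different distances from the nearest one. CHGA, chromogranin A, was the closest of the genes outside the 20 kb limit. Its nearest peak (chr14:92867599-92867859) was 54.8 kb before the gene and overlapped no RefSeq gene. That peak had a fold enrichment of 10.6 and 21 ChIP reads (13.0 to 32.1), so its fold enrichment was above those of both peaks within the limit, with intervals that overlapped theirs. For SCG2, the precursor of secretoneurin, the nearest peak was 86.1 kb away, with a fold enrichment of 6.27 and 12 reads (6.20 to 20.96). It overlapped no gene.

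SCG3, which binds chromogranin A and the vesicle membrane, had 2 peaks within 100 kb and both lay in TMOD2. The nearer was 76.3 kb away with a fold enrichment of 5.59 and 13 reads over a background of 1.46. The other was 80.5 kb away with a fold enrichment of 3.43 and 20 reads, over a higher local background. SCG5 encodes the chaperone that keeps the convertase PCSK2 in its pro-form until it reaches the vesicle. Its nearest peak was 464 kb away, with a fold enrichment of 4.83. The distance was largest for CHGB, chromogranin B, at 791 kb, and 1 peak lay within 1 Mb of this gene.

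Among the processing enzymes, CPE had a peak and the convertases PCSK1 and PCSK2 had none. CPE, carboxypeptidase E, removes basic residues from the ends left by the convertases. The peak at chr4:165398700-165398926 lay within the CPE body, 19.8 kb downstream of the start site, and was 227 bp wide. Whether it lies in an exon or an intron is not given in the table used. It reached 8.20-fold enrichment, with a −log10 p of 13.5 and a −log10 q of 9.45. At the summit, 165398794, there were 16 ChIP reads (95% exact Poisson interval 9.15 to 26.0) over a background of 1.04, and the limits are fold enrichments of 4.90 and 13.0. It ranked 1775 by fold enrichment among the 6183 peaks, and 69.0% of peaks had a lower value. No other protein-coding gene lay within 20 kb of it. A second peak lay 51.3 kb before the gene, in MSMO1, with a fold enrichment of 9.64 and 19 reads (11.4 to 29.7).

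The peak of CPE was higher than that of VGF on each measure, although the intervals of their reads overlapped. The median of the 2 fold enrichments was 6.51, beside the median of 6.79 over all peaks.

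**Figure D2:**
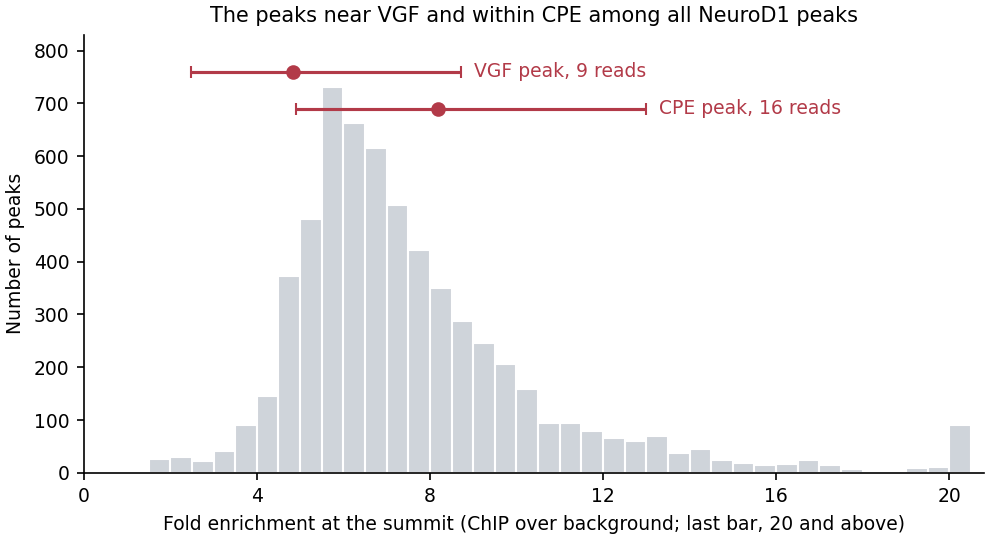
Histogram of the fold enrichment at the summit (x axis, ratio) of all 6183 peaks, by number of peaks (y axis), with the last bar holding values of 20 and above. Red points are the peaks of VGF (4.83) and CPE (8.20), and their bars the fold enrichment for the 95% Poisson interval of the reads; VGF lies at the low end and CPE above the median.

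PCSK1 and PCSK2, the convertases of neuroendocrine cells, cut prohormones after pairs of basic residues. PCSK1 was 278 kb from its nearest peak, which had a fold enrichment of 6.27 and 12 reads. PCSK2 was 198 kb from a peak of higher fold enrichment, 13.97, with 28 reads (18.6 to 40.5), in RRBP1. The body of PCSK2 is 258 kb long and held no peak. CADPS encodes the protein that primes dense-core vesicles for exocytosis, and is the longest of the genes at 477 kb. It held no peak either, and its nearest was 590 kb away.

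These counts were read against the same counts over all genes. Of the 20037 protein-coding genes, 5944 had a peak by the same rule (29.7%), while 2 of the 10 dense-core vesicle genes did (20%, 95% exact Clopper-Pearson interval 2.52% to 55.6%). The background share lies within this interval, which covers counting error only and is wide because it rests on 10 genes. Whether the share of these genes differs from the background was not tested. A longer gene has more room for a peak, and 6 of the 10 genes were longer than the median of 24.1 kb. The background share was 23.6% for genes under 10 kb, the class of SCG2 and VGF, and 29.8% from 10 to 30 kb, the class of CHGA and CHGB. It was 30.9% from 30 to 100 kb, which takes in SCG3, SCG5 and PCSK1, and 35.2% from 100 to 300 kb for PCSK2 and CPE. For genes of 300 kb or more, the class of CADPS, it was 45.8%. The mean of these shares over the 10 genes was 31.6%.

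The chromosomes of the genes differed less. Their background shares ran from 20% on chromosome 4, which carries CPE, to 33.7% on chromosome 15, which carries SCG3 and SCG5. The bodies of the 10 genes with 20 kb on each side cover 1.43 Mb and held 1.40 peaks per Mb (exact Poisson interval 0.169 to 5.04), beside 3.11 per Mb over the same windows of all protein-coding genes. Within 1 Mb of a gene, the 10 genes had between 1 and 10 peaks with a median of 3.5, against a median of 5 and quartiles of 2 and 11 for all protein-coding genes. VGF had the 10 peaks and CHGB the 1.

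No peak reached a promoter of these genes. In the promoter set, the 8 genes with an entry have 10 windows of 300 bases (250 before a start site and 50 after). Of these windows, 0 overlapped a peak, which allows a share of up to 30% if a count of 0 is taken to allow 3. Over all 35116 windows the share was 8.32%. Counted by summits within 1 kb of a start site of the gene's own, 0 of the 8 genes had one, while the background share was 15.4% of the 15843 protein-coding genes with an entry. This count was chosen after the peaks had been seen.

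The promoters were searched for 2 forms of the E-box on both strands, CAGATG and the palindrome CAGCTG. They differ at 1 base, so the same site cannot match both. CAGATG was found in 0 of the 10 windows, in 14.7% of all windows and in 12.2% of those of protein-coding genes. CAGCTG was found in 2 of the 10 windows, those of SCG3 and of 1 start site of PCSK1, and in 17.9% of all windows and 4001 of the 22199 of protein-coding genes. Neither gene had a peak within 20 kb. The 3 matches are shown with their neighbouring bases, with the motif in capitals, because they are all the matches to these 2 motifs in the 10 windows. Other forms of the E-box were not searched.
SCG3 at 226 bases before the start site (chr15:51681265-51681294, forward strand): cttaggacaagcCAGCTGaccctgagccca
SCG3 at 174 bases before the start site (chr15:51681317-51681346, forward strand): cagaaaatacacCAGCTGgccggtcgcccc
PCSK1 at 167 bases before the start site (chr5:96432310-96432339, reverse strand): ttggaagagtgcCAGCTGctgggactcgcg
The windows of CHGA, SCG5, VGF, PCSK2, CPE and CADPS, and that of AP1S1, held neither motif. A match describes letters only and is not a measured site.

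Genes related to the dense-core vesicle by role were examined by the same rule, from a list of 64 genes. Not all act in that vesicle, as CPD is in the trans-Golgi network, CPM at the cell surface and PCSK4 in germ cells. A peak was found at 20 of them (31.3%, 20.2% to 44.1%, with the same kind of interval), beside the background of 29.7%. Of the roles, the highest share was that of the other prohormone processing genes, 7 of 10 (70.0%, 34.8% to 93.3%). The lowest was that of neuropeptide genes, 2 of 20 (10%, 1.23% to 31.7%). The background share averaged over the length classes of the genes was 31.9% for the former and 25.2% for the latter. These are counts over genes and were not tested against each other. These 2 roles were picked as the extremes, which their intervals do not allow for, and the lists were chosen with earlier results known.

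The 7 processing genes with a peak were PCSK4, PCSK5, PCSK6, PAM, CPD, CPM and QPCT, and FURIN, PCSK7 and PCSK1N had none. In 4 of them a peak overlapped the gene, while for PCSK4, PCSK6 and QPCT the highest peak lay beside the gene in ADAMTSL5, SNRPA1 and PRKD3. The highest was PCSK4, a convertase of germ cells, with a fold enrichment of 10.8 and 23 reads at 16.9 kb from the gene. At CPD, which trims peptides as CPE does but in the trans-Golgi network, a peak with a fold enrichment of 10.4 and 22 reads had its summit 60 bp upstream of the start site. CPM, a carboxypeptidase of the cell surface, had a peak of 8.77-fold within the gene, far from its start. PCSK5, a broadly expressed convertase, had its summit 149 bp upstream of a start site, with a fold enrichment of 8.68. CPE, CPD and CPM carried peaks of 8.20, 10.4 and 8.77-fold, and of these the CPD peak alone lay at a start site. No share over all carboxypeptidase genes was counted.

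Among the 14 exocytosis genes, 4 had a peak (28.6%), beside a background share of 33.5% averaged over their length classes. SYT7, a calcium sensor for slow vesicle release, had the highest fold enrichment of all the related genes, 26.5 with 54 reads (rank 36). RAB3A, a vesicle GTPase, had a peak of 11.3-fold with its summit 269 bp upstream of the start site. RAB3D had a peak of 8.60-fold at 6.62 kb from the gene, in TMEM205, and the other gene was RPH3A. CADPS2, the paralogue of CADPS, had no peak, as CADPS had none.

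Of 7 genes for vesicle membrane proteins, 2 had a peak (28.6%), beside a background share of 31.5% averaged in the same way. These 2 genes encode the related receptor-type phosphatase proteins of the vesicle. PTPRN2 had a peak of 15.4-fold within its body, and PTPRN one of 13.97-fold at 10.1 kb, in DNAJB2. The monoamine transporters SLC18A1 and SLC18A2 had none. Of 13 biogenesis genes, 5 had a peak (38.5%), beside a background share of 31.9% averaged in the same way. The highest peaks were those of EIPR1 (9.98-fold), BAIAP3 (7.21-fold) and HID1 (6.21-fold, 9.38 kb from the gene). The others were those of VPS51 and ARFIP2. Among the 20 neuropeptide genes, NUCB2, the precursor of nesfatin, had a peak of 9.41-fold with its summit 53 bp upstream of a start site, and NMB had one of 8.06-fold at 0.688 kb, in WDR73. The other 18, which include NPY, GAL, VIP and SST, had none. Summits within 1 kb of a start site of the gene's own were found for 5 of the 53 related genes with an entry, beside 15.4% of all protein-coding genes with an entry.

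**Figure D3:**
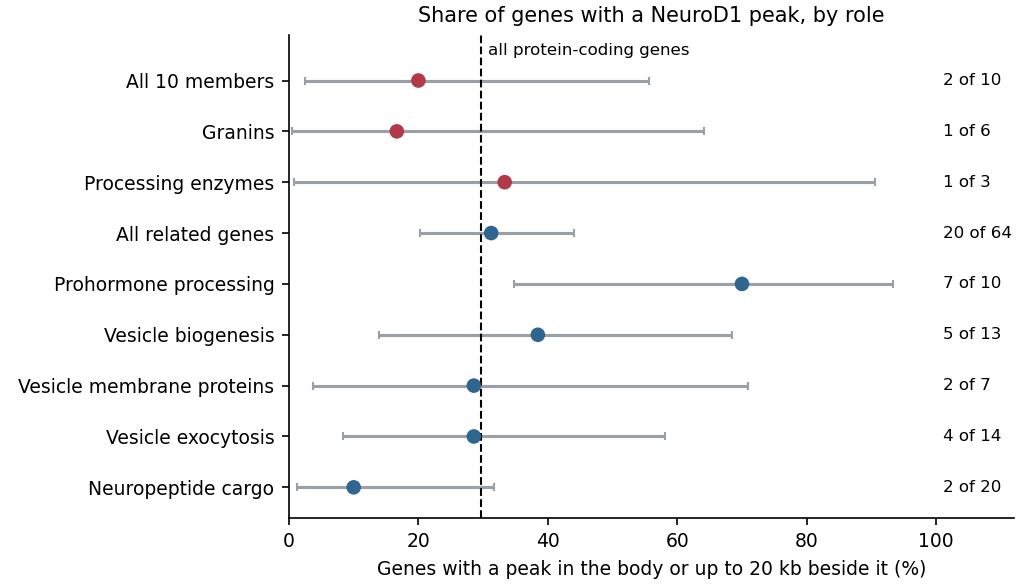
Share of genes (%) with a NeuroD1 peak in the body or up to 20 kb beside it, for the 10 genes (red) and the related genes by role (blue), with 95% exact Clopper-Pearson intervals over genes. The dashed line is the share of all protein-coding genes (29.7%), beside 20% for the 10 genes and 31.3% for all related genes.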

How the data were processed

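Chromatin of IMR-32 cells was sequenced after ChIP with an antibody labelled NeuroD1 (1 library) and as input (1 library, not analysed here). Per the labels, the submitters' processing notes list BWA 0.7.17, MACS2 2.2.7 and the build hg38, while the deposited peak names read macs3. Neither the control nor the q threshold is given in the sources used here. The authors deposited a fold enrichment ratio and the −log10 p-value and −log10 q-value at each summit. The deposited score equals 10 times the −log10 q, cut to a whole number, in 6182 of 6183 rows, and the last deposited column is the fold over the peak width, also a score.

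Evenly spaced fold enrichments gave the weight of 1 ChIP read (0.98) and the lowest background (1.04). From these and the Poisson p of MACS, the reads and background of every summit were solved, which gave back the −log10 p within 0.1% for 6180 peaks. The solver was tested on simulated data. Positions are counted from 1. Gene bodies and promoters are from RefSeq GRCh38.p14. Peaks beside 2 genes count for both.

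The members and gene lists were chosen with earlier results of these data known. The text names all members, related genes with a peak (at most 3 in each role with values, by fold enrichment, and PCSK5, added after its value was seen), and some of the genes that overlap a described peak. The result for 1 marker gene is not reported here. Alternatives changed the distance, the peak threshold, the use of the summit, the ranking and the promoter length. Scripts ran in Python 3.11.15 with scipy 1.17.1, pandas 2.3.3, matplotlib 3.10.9 and numpy 2.4.6.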

Additional observations from a re-analysis of the deposited data

How the results depend on the processing

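VGF was lost, and CPE remained as 1 gene with 1 peak and a median fold enrichment of 8.20, in 4 settings: gene bodies alone (0 kb), 3 kb beside the gene, a −log10 q of at least 5 and a fold enrichment of at least 5. The VGF peak lies farther out or below those limits. With 10 kb, 50 kb or with summits used instead of intervals, the genes were VGF and CPE with 2 peaks.

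The background share of protein-coding genes with a peak was 16.0% at 0 kb, 21.4% at 3 kb, 25.1% at 10 kb and 39.9% at 50 kb, beside 29.7% at 20 kb. It was 24.4% with the limit on −log10 q and 27.6% with the limit on fold enrichment. Related genes with a peak numbered 11 at 0 kb, and stayed within 1.5 times of 20 in the other settings. The CPE peak ranked 2279 by −log10 q. The counts of promoters with each E-box were the same in the 250 bases before the start site, an alternative chosen after the data were seen.

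No paired analysis was possible because there was 1 ChIP library. With 16 and 9 reads at the summits, the order of these peaks in the list is imprecise.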

Other observations

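Among the reported genes that mark the adrenergic identity of neuroblastoma, HAND2 and DBH had a peak by the same 20 kb rule, and GATA3, ISL1 and TH had none, beside 29.7% of all protein-coding genes with a peak. The DBH peak lay within the gene, with a fold enrichment of 5.27 and 10 ChIP reads (95% exact Poisson interval 4.80 to 18.4). The HAND2 peak lay 3.77 kb from the gene, with a fold enrichment of 6.18 and 12 reads (6.20 to 20.96).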
